A study of Mus musculus with 9 samples.

Results

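The genes described here are 36 of the 47729 genes listed for whole newborn mouse lenses, and they make up the pathway by which cells sense nucleic acids and respond to interferon. They were taken by gene symbol in 5 groups by role: 7 nucleic acid sensors and adaptors, 5 transcription factors of the IRF and STAT families, 15 antiviral effectors, 5 regulators that act through ubiquitin, ISG15 or ADP-ribose, and 4 genes of antigen presentation by MHC class I. RNA-Seq of polyadenylated RNA was performed on newborn lenses of wild-type *FVB/N* mice and of 2 transgenic lines on the same *FVB/N* background, hemizygous *P0-3.9GFPCre* and hemizygous *Le-Cre*. Both transgenes produce CRE recombinase and green fluorescent protein under a *Pax6* P0 promoter fragment, which is active in the lens, and no loxP-flanked target gene is named for these mice. Each line had 3 pools, and a pool held 6 lenses from 3 mice. The comparison of hemizygous lenses with *FVB/N* lenses asks which endogenous genes respond to the presence of a CRE transgene, and here it was read for the genes of this pathway. Whole lenses were used, so a difference in the number of cells of a type and a difference in RNA per cell cannot be told apart.

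As background, DNA in the cytoplasm is bound by cGAS (*Mb21d1*), which makes a cyclic dinucleotide that activates STING (*Tmem173*), while RNA is bound by RIG-I (*Ddx58*) and MDA5 (*Ifih1*), which signal through MAVS. Both routes recruit the kinase TBK1, which phosphorylates IRF3 so that type I interferon genes are transcribed. Secreted interferon then signals through its receptor to a complex that holds STAT2 and IRF9 and binds the interferon-stimulated response element (ISRE) in the promoters of effector genes such as *Isg15*, *Ifit1* and *Bst2*.

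The promoter sequences below show where these genes hold the element that the interferon pathway reads. They are the 250 bases before the RefSeq transcription start on GRCm38.p6, printed 5′ to 3′ on the strand of the gene, and they end at the base next to the start. Capitals mark the core of the ISRE, taken here as GAAA, a gap of any 2 bases and GAAA again, on either strand, so that a match on the opposite strand reads as TTTC, 2 bases and TTTC, and matches may overlap. *Isg15*, *Ifit1* and *Bst2* are shown as effectors with several matches, and *B2m* as the member with the smallest p-value in each comparison of *Le-Cre*. *Ifitm2* is shown as the most abundant member and *Tbk1* as the most abundant member with no match. The windows lie at chr4:156200819-156201068 (minus strand) for *Isg15*, chr19:34640639-34640888 (plus strand) for *Ifit1*, chr8:71537473-71537722 (minus strand) for *Bst2*, chr2:122147437-122147686 (plus strand) for *B2m*, chr7:140955962-140956211 (minus strand) for *Ifitm2* and chr10:121586795-121587044 (minus strand) for *Tbk1*.
Isg15: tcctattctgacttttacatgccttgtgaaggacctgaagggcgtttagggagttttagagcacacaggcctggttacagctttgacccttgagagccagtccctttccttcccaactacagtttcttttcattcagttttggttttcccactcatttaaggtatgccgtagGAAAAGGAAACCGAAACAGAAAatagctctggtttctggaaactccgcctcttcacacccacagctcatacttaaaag
Ifit1: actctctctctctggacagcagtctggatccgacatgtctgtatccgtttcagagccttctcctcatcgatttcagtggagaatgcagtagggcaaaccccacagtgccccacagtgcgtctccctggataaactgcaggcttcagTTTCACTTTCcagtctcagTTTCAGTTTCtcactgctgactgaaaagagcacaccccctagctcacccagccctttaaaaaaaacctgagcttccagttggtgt
Bst2: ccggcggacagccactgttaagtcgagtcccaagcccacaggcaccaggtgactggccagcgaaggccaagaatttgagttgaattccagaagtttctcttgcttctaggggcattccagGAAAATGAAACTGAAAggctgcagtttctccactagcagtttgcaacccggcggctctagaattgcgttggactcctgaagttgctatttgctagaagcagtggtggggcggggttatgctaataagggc
B2m: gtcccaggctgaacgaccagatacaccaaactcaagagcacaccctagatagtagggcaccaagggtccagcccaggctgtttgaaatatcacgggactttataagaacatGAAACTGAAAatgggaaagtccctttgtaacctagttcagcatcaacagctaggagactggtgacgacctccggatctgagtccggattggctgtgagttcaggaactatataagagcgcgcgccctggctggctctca
Ifitm2: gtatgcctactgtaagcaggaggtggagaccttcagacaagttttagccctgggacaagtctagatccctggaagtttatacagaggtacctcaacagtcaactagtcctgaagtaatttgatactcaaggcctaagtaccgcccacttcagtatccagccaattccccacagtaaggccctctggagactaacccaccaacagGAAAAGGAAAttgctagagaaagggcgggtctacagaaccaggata
Tbk1: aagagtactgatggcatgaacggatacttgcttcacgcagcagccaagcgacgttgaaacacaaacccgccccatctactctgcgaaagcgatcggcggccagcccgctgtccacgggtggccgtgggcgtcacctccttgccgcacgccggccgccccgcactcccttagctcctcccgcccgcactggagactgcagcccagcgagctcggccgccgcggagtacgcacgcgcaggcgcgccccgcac

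*Isg15* held 3 overlapping matches, of which the nearest began 66 bases before the start. *Ifit1* and *Bst2* held 2 matches each, with the nearest at 85 and 124 bases. *B2m* and *Ifitm2* each held 1, at 139 and 46 bases. Of the 36 members, 30 had a promoter window in the RefSeq table, which spans 250 bases before and 50 after the start. A match of the ISRE core was present in 15 of these 30 (50.0%), against 3.99% of the 27025 genes with a window. At least 2 matches were found in 8 members, *Ddx60*, *Isg15*, *Ifit1*, *Ifit3*, *Ifitm3*, *Oas1a*, *Bst2* and *Gbp3*, against 0.266% of all genes. By role, the core was present in 10 of 13 antiviral effectors, 3 of 6 sensors and adaptors, 1 of 5 IRF and STAT factors, 1 of 4 MHC class I genes and 0 of 2 regulators with a window. The core of the gamma-activated site, taken as TTC, a gap of any 3 bases and GAA, was present in 5 of 30 members (16.7%) against 9.55% of all genes. The members were chosen as genes of the interferon pathway, so an ISRE share above that of all genes was built into the choice. These counts describe letters in a window and not binding. They also describe the C57BL/6J reference and not the *FVB/N* genome.

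The pools held 20670968 to 28098059 expected counts each, which are RSEM's estimates of the reads of each gene. Crystallins and other lens fibre genes defined the tissue in every pool, since 9 fibre markers summed to 254448 to 297541 TPM (transcripts per 1000000 transcripts) and 5 epithelial markers to 168 to 199 TPM. By line, the epithelial sum was 184 to 192 TPM in *FVB/N*, 182 to 199 in *P0-3.9GFPCre* and 168 to 179 in *Le-Cre*. Every *Le-Cre* pool was thus below every pool of the other lines in this sum, the highest by a small margin. Pools differed in the counts of 4 Y-linked genes, from 126 to 194 CPM (counts per 1000000 counts) in *FVB/N*, 1.66 to 135 in *P0-3.9GFPCre* and 0.633 to 71.9 in *Le-Cre*, so the sexes were not balanced between pools. Every *FVB/N* pool lay above every *Le-Cre* pool in these counts, so line and sex cannot be fully told apart in that comparison. A fit with these counts as a covariate was run beside the main one. Nothing in the labels says whether pools of a line came from separate litters, and p-values measure the spread between these pools. The sample code of *FVB/N* pool 3 ends in 4, whereas the codes of the other 8 pools end in their replicate numbers.

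The members spanned a wide range of levels in the newborn lens, and most of the antiviral effectors were below 1 TPM. Levels are given in TPM, which RSEM scales for transcript length, as the mean of all 9 pools. Of the 36 members, 5 reached 5 TPM or more, 12 reached 1 TPM or more and 24 were below 1 TPM. *Ifitm2*, a membrane protein that restricts virus entry, was the most abundant at 27.5 TPM, followed by *Tbk1* at 12.3, *B2m* (the light chain of MHC class I molecules) at 9.98, *Irf3* at 8.08 and *Mavs* at 7.98 TPM. The pool ranges of *Tbk1* (10.8 to 14.5 TPM), *B2m* (7.78 to 13.2), *Irf3* (6.14 to 10.02) and *Mavs* (7.25 to 8.62) overlapped their neighbours in this order, whereas the lowest *Ifitm2* pool (21.8 TPM) lay above every pool of every other member. The kinase, adaptor and transcription factor that act before interferon is made stood at higher TPM than the sensors, with the cytosolic DNA sensor *Mb21d1* at 0.0511 TPM, its partner *Tmem173* at 0.421, *Ifih1* at 0.0622 and *Ddx58* at 1.95 TPM.

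**Figure D1:**
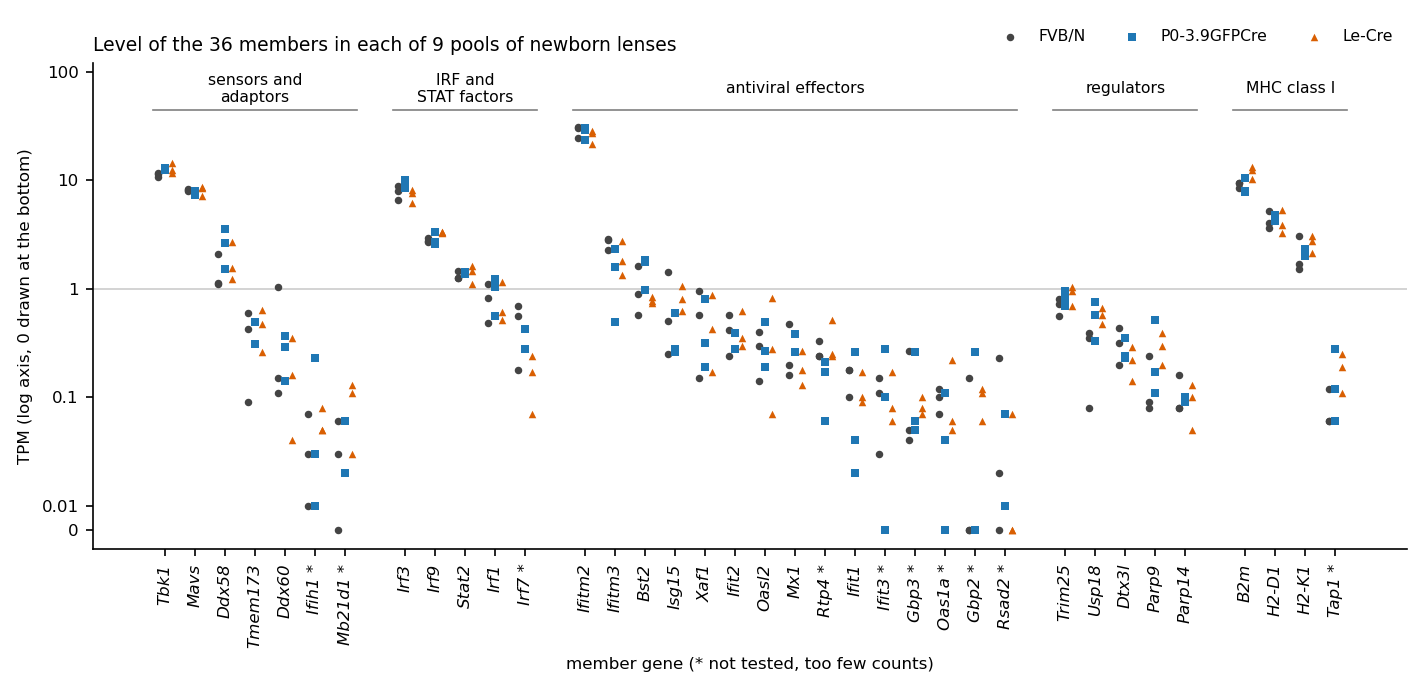
TPM of each of the 36 members in each of the 9 pools on a log axis, grouped by role and ordered by mean level. Circles are *FVB/N*, squares *P0-3.9GFPCre* and triangles *Le-Cre* pools, a value of 0 is drawn at the bottom, and an asterisk marks the 10 members with too few counts to be tested. *Ifitm2* lies above 20 TPM in every pool, and most antiviral effectors lie below 1 TPM in all 3 lines.

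Of the 15 antiviral effectors, only *Ifitm2*, *Ifitm3* (2.04 TPM) and *Bst2* (1.12 TPM) had a mean above 1 TPM. *Isg15*, the ubiquitin-like modifier that is among the most strongly induced interferon targets, stood at 0.649 TPM, *Ifit1*, which binds foreign RNA, at 0.127, *Ifit3* at 0.109 and *Rsad2* (viperin) at 0.0456 TPM. Members with an ISRE core in the promoter window had a median level of 0.294 TPM (range 0.0456 to 27.5), and the 15 without one had a median of 0.804 TPM (range 0.0511 to 12.3). By level, the core was present in 9 of 18 members under 1 TPM, 4 of 7 at 1 to 5 TPM and 2 of 5 at 5 TPM or more. Antiviral effectors made up 10 of the 15 members with the core, so role and match cannot be told apart in these medians. *Isg15*, with the most matches of all members, was at a lower level than *B2m* and *Ifitm2* with 1 match each. The 8 members with at least 2 matches ranged from 0.0856 TPM for *Oas1a* to 2.04 TPM for *Ifitm3*.

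**Figure D2:**
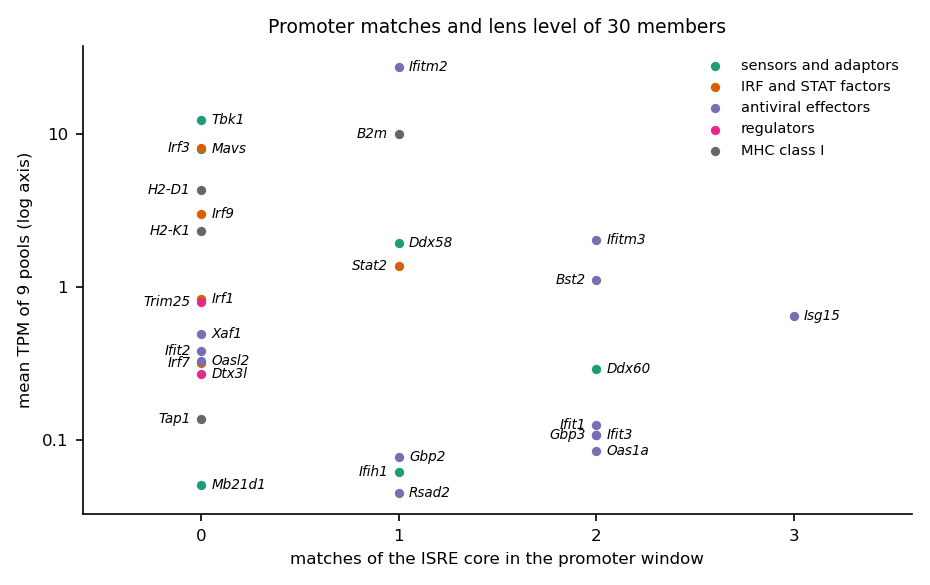
Mean TPM over the 9 pools on a log axis against the number of ISRE core matches in the promoter window, for the 30 members with a window, coloured by role. Members with 2 or 3 matches lie between 0.0856 and 2.04 TPM, and *Ifitm2* and *B2m*, with 1 match each, lie at 27.5 and 9.98 TPM.

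Counts were too low to test 10 members in the main fit, namely *Mb21d1*, *Ifih1*, *Irf7*, *Ifit3*, *Oas1a*, *Rsad2*, *Gbp2*, *Gbp3*, *Rtp4* and *Tap1*, which had 0 to 18 counts in a pool. A count of 0 allows up to 3 counts by counting error alone, or 0.107 to 0.145 CPM depending on the pool. *Mb21d1* had 5 counts over the 3 *FVB/N* pools, 5 over the *P0-3.9GFPCre* pools and 18 over the *Le-Cre* pools. Its pools overlapped, with 2, 3 and 0 counts in *FVB/N* and 3, 8 and 7 in *Le-Cre*. For this comparison edgeR with no filter on low counts gave *Mb21d1* an unadjusted p of 0.189 (adjusted 0.846). *Irf7*, the factor that amplifies interferon transcription, had 25, 15 and 12 counts in the same order, and *Rsad2* had 5, 7 and 6. *Rtp4*, a receptor chaperone that interferon induces, had 29, 14 and 36 counts. *Ifih1*, *Ifit3* and the RNA-sensing synthetase *Oas1a* had 5 to 16 counts over the pools of a line, and the GTPases *Gbp2* and *Gbp3*, which act against intracellular pathogens, had 4 to 23. *Oas1a* and *Ifit3* share 57.0% and 50.8% of their 51-base sequences with other transcripts, so their counts could be split between gene copies. A difference of a few counts was not detectable in these 10 members at this depth.

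No member passed the cutoff for differential expression between any of the lines. Counts were normalized with edgeR's TMM method, the 15557 genes with enough counts were tested with its quasi-likelihood test in 1 model of all 9 pools, and p-values were adjusted over all of these genes by the Benjamini-Hochberg method. A call needed a 1.5-fold or larger difference together with an adjusted p no higher than 0.05. This cutoff was passed by 0 of the 26 tested members in *Le-Cre* against *FVB/N*, where 0.0643% of all tested genes passed it, and by 0 members in *P0-3.9GFPCre* against *FVB/N* (0% of all genes) and in *Le-Cre* against *P0-3.9GFPCre* (0%). DESeq2 called 0 members in each comparison as well, and with it 0, 0 and 1 members had an unadjusted p under 0.05 in these 3 comparisons. An unadjusted edgeR p under 0.05 was reached by 1 member in *Le-Cre* against *FVB/N*, *B2m*, where 7.94% of all genes reached it, by 0 members in *P0-3.9GFPCre* against *FVB/N* (6.81%) and by 1 member, again *B2m*, in *Le-Cre* against *P0-3.9GFPCre* (7.88%). The member with the smallest adjusted edgeR p had 0.553 in the first comparison, 0.763 in the second and 0.429 in the third. With 3 pools against 3, the smallest p that an exact two-sided permutation test can reach is 0.1.

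The median log2 fold change of the 26 tested members was -0.02 in *Le-Cre* against *FVB/N*, beside -0.004 for all tested genes, with 12 members above 0 and 14 below. For *P0-3.9GFPCre* against *FVB/N* it was 3.56e-04 beside a median over all genes of 2.39e-05, with 13 members on either side. For *Le-Cre* against *P0-3.9GFPCre* it was 0.08 beside -0.002, with 16 members above 0 and 10 below (61.5% above, beside 49.5% of all tested genes). How far a difference can be bounded depended on the level. The 95% confidence interval of the fold change stayed within 2-fold in either direction for 13 of 26 members in *Le-Cre* against *FVB/N* and 12 in *P0-3.9GFPCre* against *FVB/N*, and within 1.5-fold for 7 in each. A 2-fold rise lay outside the interval of 18 of 26 members in each of these comparisons. The intervals of *Isg15*, *Ifit1*, *Mx1* and *Usp18* reached beyond 2-fold in at least 1 direction in both comparisons.

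**Figure D3:**
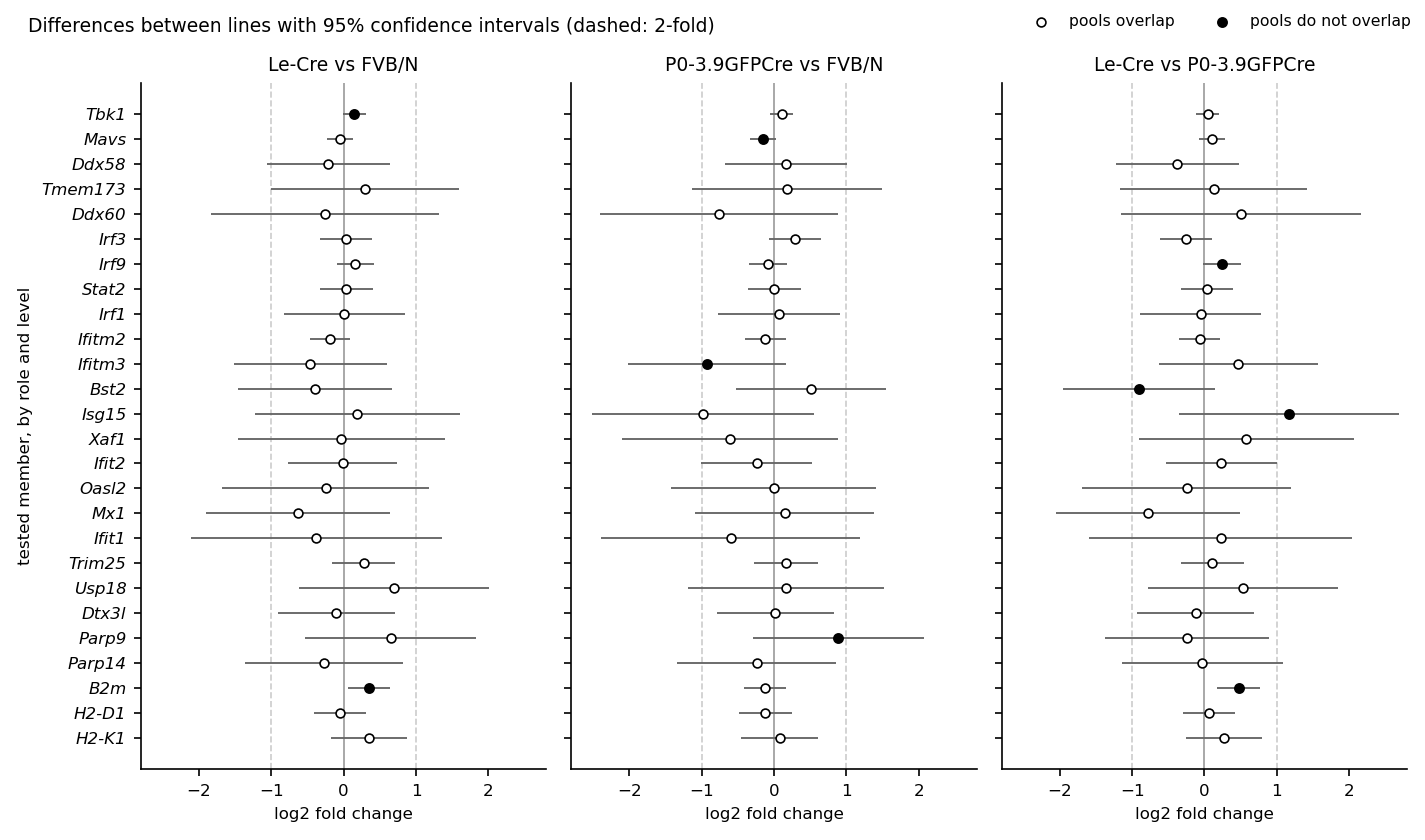
Log2 fold change of the 26 tested members in the 3 comparisons, with 95% confidence intervals from the edgeR fit and dashed lines at 2-fold. Filled points mark members whose normalized CPM values do not overlap between the 3 pools of either line, which holds for 2, 3 and 4 members, and all intervals except those of *B2m* in the comparisons of *Le-Cre* include 0.

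Pools of both lines did not overlap for 2 of 26 members in *Le-Cre* against *FVB/N*, *B2m* and *Tbk1*, where 13.5% of all tested genes did not overlap. There were 3 such members in *P0-3.9GFPCre* against *FVB/N*, *Ifitm3*, *Mavs* and *Parp9* (12% of all genes), and 4 in *Le-Cre* against *P0-3.9GFPCre*, *B2m*, *Bst2*, *Irf9* and *Isg15* (14.1%). The values that follow are TMM-normalized CPM in pools 1, 2 and 3 of a line. They compare 1 gene between pools and, unlike TPM, are not scaled for gene length.

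Among the sensors and adaptors, the kinase *Tbk1*, shared by the RNA and DNA routes, and the adaptor *Mavs* had the narrowest intervals. *Tbk1* (chr10:121546455-121586787 on GRCm38) had 30.4, 32.4 and 33.5 CPM in the *FVB/N* pools, 32.9, 34.8 and 35.9 in the *P0-3.9GFPCre* pools and 35.0, 38.0 and 33.7 in the *Le-Cre* pools. All *Le-Cre* pools lay above the *FVB/N* pools, the lowest by a small margin, while the *P0-3.9GFPCre* pools overlapped both. In TPM, *Le-Cre* pool 3 (11.6) was below *FVB/N* pool 2 (11.7). The log2 fold change in *Le-Cre* against *FVB/N* was 0.15 (95% interval -0.01 to 0.31), with an adjusted p of 0.685 in edgeR's test. *Mavs* (chr2:131234063-131248025), the mitochondrial adaptor of the RNA sensors, had 22.01, 21.8 and 22.7 CPM in *FVB/N*, 18.5, 20.2 and 21.1 in *P0-3.9GFPCre* and 22.7, 21.5 and 19.99 in *Le-Cre*. Its *P0-3.9GFPCre* pools were all below the *FVB/N* pools, with a log2 fold change of -0.15 (-0.33 to 0.02) and an adjusted edgeR p of 0.763. A difference of 1.5-fold lay outside the intervals of both genes in all 3 comparisons.

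The remaining tested sensors had overlapping pools in every comparison. *Tmem173*, which encodes STING, had 0.908, 1.25 and 0.205 CPM in *FVB/N*, 0.617, 1.02 and 1.03 in *P0-3.9GFPCre* and 1.35, 0.507 and 1.04 in *Le-Cre*, so that the lowest value and the second highest were both in *FVB/N*. *Ddx58* had line means of 2.06 ± 0.711, 2.31 ± 0.995 and 1.77 ± 0.588 CPM (SD, n = 3 pools each) in *FVB/N*, *P0-3.9GFPCre* and *Le-Cre*. In TPM its means were 1.45, 2.57 and 1.82 in the same order, so *Le-Cre* was below *FVB/N* in CPM and above it in TPM. *Ddx60*, a helicase that acts with RIG-I, had 0.605, 0.430 and 0.614 CPM in *FVB/N*, 0.0411, 0.630 and 0.314 in *P0-3.9GFPCre* and 0.783, 0.351 and 0.226 in *Le-Cre*. The lowest value was in *P0-3.9GFPCre* pool 1 and the highest in *Le-Cre* pool 1. In TPM, *FVB/N* pool 3 was the highest (1.04 TPM), which the CPM did not show. Its log2 fold changes were -0.26 in *Le-Cre* and -0.76 in *P0-3.9GFPCre* against *FVB/N*, with standard errors of 0.72 and 0.75. Over the group, the 5 tested genes had a median log2 fold change of -0.05 for *Le-Cre* and 0.10 for *P0-3.9GFPCre* against *FVB/N*.

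In the IRF and STAT group, *Irf3*, the factor activated directly by TBK1, was the most abundant. It had 8.32, 5.85 and 7.86 CPM in *FVB/N*, 9.79, 7.85 and 9.29 in *P0-3.9GFPCre* and 6.90, 6.79 and 8.91 in *Le-Cre*. The pools of the lines overlapped in every comparison. Against *FVB/N* its log2 fold change was 0.03 (-0.33 to 0.40) for *Le-Cre* and 0.29 (-0.07 to 0.65) for *P0-3.9GFPCre*, with adjusted edgeR p-values of 0.983 and 0.795. The exons of *Irf3* (chr7:44997648-45002848) overlap those of *Bcl2l12* on the opposite strand, and the kit does not mark strand, so some reads could belong to either gene.

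*Irf9*, the DNA-binding subunit of the interferon-activated STAT complex, had 6.62, 6.45 and 7.82 CPM in *FVB/N*, 6.74, 6.44 and 6.55 in *P0-3.9GFPCre* and 7.58, 7.88 and 7.92 in *Le-Cre*. The *Le-Cre* pools lay above all *P0-3.9GFPCre* pools but not above pool 3 of *FVB/N*. In TPM the order differed, since the *Le-Cre* pools (3.36, 3.30 and 3.36) overlapped *P0-3.9GFPCre* pool 1 (3.35) and lay above all *FVB/N* pools (2.69, 2.78 and 2.95). The difference between the transgenic lines was 0.24 on the log2 scale (-0.01 to 0.50), with an adjusted p of 0.661 by edgeR. The exons of *Irf9* overlap those of *Rnf31* on the same strand. *Stat2*, another subunit of this complex, and *Irf1*, an early interferon-induced factor, had log2 fold changes of 0.04 and 0.01 in *Le-Cre* and 0.01 and 0.06 in *P0-3.9GFPCre*. Their standard errors against *FVB/N* were 0.16 for *Stat2* and 0.38 for *Irf1*.

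The antiviral effectors, which an interferon response raises most, had pools that overlapped between each transgenic line and *FVB/N* in all but 1 of the 9 tested genes, *Ifitm3* in *P0-3.9GFPCre*. *Ifitm2* (chr7:140954837-140955987) had 16.9, 16.3 and 14.2 CPM in *FVB/N*, 15.0, 15.99 and 12.7 in *P0-3.9GFPCre* and 11.8, 14.5 and 15.4 in *Le-Cre*. The lowest value was in *Le-Cre* pool 1 and the lines overlapped. This gave log2 fold changes of -0.18 (95% interval -0.46 to 0.09) for *Le-Cre* and -0.12 (-0.40 to 0.16) for *P0-3.9GFPCre*, both against *FVB/N*. Of its 51-base sequences, 48.3% also occur in other transcripts, mainly those of the overlapping *Gm45717*, and the sum of *Ifitm2*, *Ifitm3* and *Ifitm1* gave log2 fold changes of -0.21 and -0.18.

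*Ifitm3* (chr7:141009586-141010770), its close relative on the same chromosome, had 1.74, 1.68 and 1.43 CPM in *FVB/N*, 0.288, 0.920 and 1.35 in *P0-3.9GFPCre* and 1.64, 0.741 and 1.13 in *Le-Cre*. All *P0-3.9GFPCre* pools were below the *FVB/N* pools, and pool 1 was the lowest by a wide margin. In TPM the lines overlapped, with 2.35 in *P0-3.9GFPCre* pool 3 and 2.28 in *FVB/N* pool 3. Its log2 fold change was -0.93 (-2.02 to 0.16), with an adjusted edgeR p of 0.765, and it was -0.51 without *P0-3.9GFPCre* pool 1 and -1.43 without pool 3 (unadjusted edgeR p of 0.0253). In *Le-Cre* it was -0.46 with overlapping pools.

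*Bst2* (chr8:71534255-71537456), which encodes tetherin, a protein that holds budding virus at the cell surface, had 0.605, 1.08 and 0.409 CPM in *FVB/N*, 0.617, 1.16 and 1.21 in *P0-3.9GFPCre* and 0.569, 0.468 and 0.543 in *Le-Cre*. The *Le-Cre* pools were close to each other and below every *P0-3.9GFPCre* pool, and the *FVB/N* pools overlapped both. Between the transgenic lines the log2 fold change was -0.91 (-1.96 to 0.14; edgeR adjusted p = 0.694). *Isg15* (chr4:156199424-156200818) showed the opposite order, with 0.165, 0.388 and 0.180 CPM in *P0-3.9GFPCre*, 0.712, 0.390 and 0.543 in *Le-Cre* and 0.340, 0.946 and 0.164 in *FVB/N*. Here too the transgenic lines barely separated, while *FVB/N* held the highest pool and the lowest one. For *Le-Cre* against *P0-3.9GFPCre* its log2 fold change was 1.17 (-0.35 to 2.69; edgeR adjusted p = 0.727), and against *FVB/N* the values were 0.19 for *Le-Cre* and -0.98 for *P0-3.9GFPCre*. *Isg15* had 4 to 22 counts in a pool and *Bst2* 10 to 27. Without *FVB/N* pool 2, *Isg15* stood at 1.103 in *Le-Cre* and -0.07 in *P0-3.9GFPCre* against *FVB/N*, and the latter was -1.45 without *P0-3.9GFPCre* pool 2.

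The other tested effectors had fewer than 1 TPM and overlapping pools in every comparison. *Mx1*, a dynamin-like GTPase whose allele is defective in many inbred strains, had 0.454, 0.387 and 1.43 CPM in *FVB/N*, 0.658, 0.920 and 0.943 in *P0-3.9GFPCre* and 0.320, 0.429 and 0.724 in *Le-Cre*, with *FVB/N* pool 3 above all others. For *Le-Cre* against *FVB/N* its log2 fold change was -0.63 and became 0.21 without that pool, and for *P0-3.9GFPCre* it was 0.15 and became 0.99. *Ifit1*, with 1 to 13 counts in a pool, had log2 fold changes of -0.38 in *Le-Cre* and -0.60 in *P0-3.9GFPCre* against *FVB/N*. The latter was -2.45 without *P0-3.9GFPCre* pool 2 (unadjusted edgeR p of 0.0155) and -0.08 without pool 1. Between the transgenic lines its log2 fold change was 0.22, and -0.30 to 2.07 with single pools left out, the highest without *P0-3.9GFPCre* pool 2 (unadjusted edgeR p of 0.0346). Against *FVB/N*, with *Le-Cre* first and *P0-3.9GFPCre* second, *Ifit2* had -0.01 and -0.24, *Oasl2* -0.25 and -0.01, and *Xaf1*, which is linked to apoptosis, -0.03 and -0.61 in the same order of lines. Of the 9 tested effectors, 1 had a log2 fold change above 0 in *Le-Cre* (median -0.25) and 2 in *P0-3.9GFPCre* (median -0.24), beside 49.0% and 50.0% of all tested genes. In the same order of lines, 2 and 3 of 5 sensors and adaptors and 4 and 3 of 4 IRF and STAT factors were above 0. The regulators had 3 and 4 of 5 above 0, and the MHC class I genes 2 and 1 of 3. Both lines were compared with the same *FVB/N* pools, so the counts of the 2 lines are not independent.

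The regulators were led by *Trim25*, the ubiquitin ligase that activates RIG-I, which had 3.82, 4.13 and 3.03 CPM in *FVB/N*, 4.69, 3.54 and 4.08 in *P0-3.9GFPCre* and 5.34, 4.21 and 3.71 in *Le-Cre*. Pools overlapped in every comparison, and the log2 fold change in *Le-Cre* against *FVB/N* was 0.28 (-0.16 to 0.71). *Parp9*, which forms a complex with the ubiquitin ligase DTX3L, had 0.227, 0.301 and 0.246 CPM in *FVB/N*, 0.411, 0.678 and 0.359 in *P0-3.9GFPCre* and 0.534, 0.234 and 0.452 in *Le-Cre*. All *P0-3.9GFPCre* pools were above the *FVB/N* pools in CPM, although in TPM the pools overlapped (0.17, 0.52 and 0.11 against 0.08, 0.24 and 0.09). This was a log2 fold change of 0.89 (-0.29 to 2.07; edgeR adjusted p = 0.807) on 6 to 15 counts in a pool. *Parp9* and *Dtx3l* lie head to head on chromosome 16 with overlapping exons on opposite strands, and *Dtx3l* itself had 0.02 in *P0-3.9GFPCre* and -0.10 in *Le-Cre*. *Usp18*, which removes ISG15 from proteins and dampens receptor signalling, had 0.70 in *Le-Cre* and 0.17 in *P0-3.9GFPCre* against *FVB/N*, with standard errors of 0.60 and 0.61. Its pools overlapped in CPM. In TPM the *Le-Cre* pools (0.58, 0.47 and 0.66) lay above all *FVB/N* pools (0.39, 0.08 and 0.35), and the *P0-3.9GFPCre* pools (0.75, 0.33 and 0.57) overlapped both. *Parp14*, an ADP-ribosyltransferase, had log2 fold changes of -0.27 in *Le-Cre* and -0.24 in *P0-3.9GFPCre* on 7 to 22 counts in a pool.

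MHC class I presentation held the gene with the smallest p-value of all tested members in each comparison of *Le-Cre*. *B2m* (chr2:122147686-122153083) had 7.22, 7.18 and 6.84 CPM in *FVB/N*, 7.61, 6.01 and 5.84 in *P0-3.9GFPCre* and 9.53, 9.40 and 8.05 in *Le-Cre*. Every *Le-Cre* pool was above every pool of the other lines, which overlapped each other. Line means were 7.08 ± 0.212, 6.48 ± 0.978 and 8.995 ± 0.821 CPM (SD, n = 3 pools each). *Le-Cre* differed by 0.35 on the log2 scale from *FVB/N* (95% interval 0.06 to 0.64) with an unadjusted edgeR p of 0.0237 and an adjusted one of 0.553. From *P0-3.9GFPCre* it differed by 0.47 (0.18 to 0.76), with an unadjusted edgeR p of 0.00463 and an adjusted one of 0.429. This difference did not pass the cutoff in either comparison, and in fold terms it was 1.27 and 1.39. Leaving out 1 pool at a time gave 0.30 to 0.42 and 0.40 to 0.61 on the log2 scale, and the unadjusted edgeR p against *FVB/N* was 0.0591 without *FVB/N* pool 3, 0.0719 without *Le-Cre* pool 1 and 0.0654 without *Le-Cre* pool 2. With DESeq2 without a prior, the unadjusted p against *FVB/N* was 0.0526. With the Y-linked counts as a covariate, the log2 fold change against *FVB/N* was 0.46 (unadjusted edgeR p of 0.0261, adjusted 0.962). Against *P0-3.9GFPCre* that fit gave 0.53 (unadjusted edgeR p of 0.00448, adjusted 0.621). Between *P0-3.9GFPCre* and *FVB/N*, *B2m* had a log2 fold change of -0.13 (-0.42 to 0.17). In TPM, the lowest *Le-Cre* pool (10.2) was below the highest *P0-3.9GFPCre* pool (10.6) and above all *FVB/N* pools.

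The heavy chain genes gave a mixed picture beside *B2m*. *H2-K1* had 3.82, 2.54 and 2.33 CPM in *FVB/N*, 3.21, 3.05 and 2.92 in *P0-3.9GFPCre* and 2.81, 4.13 and 4.16 in *Le-Cre*, and *FVB/N* pool 1 overlapped the *Le-Cre* pools. The log2 fold change in *Le-Cre* was 0.35 (-0.18 to 0.87), with an adjusted p of 0.785 by edgeR. *H2-D1* had 5.56, 6.19 and 5.08 CPM in *FVB/N*, 4.94, 4.41 and 6.15 in *P0-3.9GFPCre* and 6.01, 4.88 and 5.34 in *Le-Cre*, with overlapping pools and a log2 fold change of -0.05 (-0.41 to 0.31) in *Le-Cre*. These genes are highly polymorphic, *FVB/N* carries another haplotype than the C57BL/6J reference to which the reads were mapped, and 9.22% and 12.2% of their 51-base sequences occur in other genes, so their levels are uncertain. The sum of *H2-K1*, *H2-D1*, *H2-Q4*, *H2-Q6* and *H2-Q7* gave 0.11 in *Le-Cre* (edgeR adjusted p = 0.820). *Tap1*, the peptide transporter, had 9 counts over the *FVB/N* pools, 16 over the *P0-3.9GFPCre* pools and 26 over the *Le-Cre* pools, too few to be tested in the main fit. With no filter on low counts, edgeR gave *Tap1* an unadjusted p of 0.137 (adjusted 0.846) in *Le-Cre* against *FVB/N*.

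**Figure D4:**
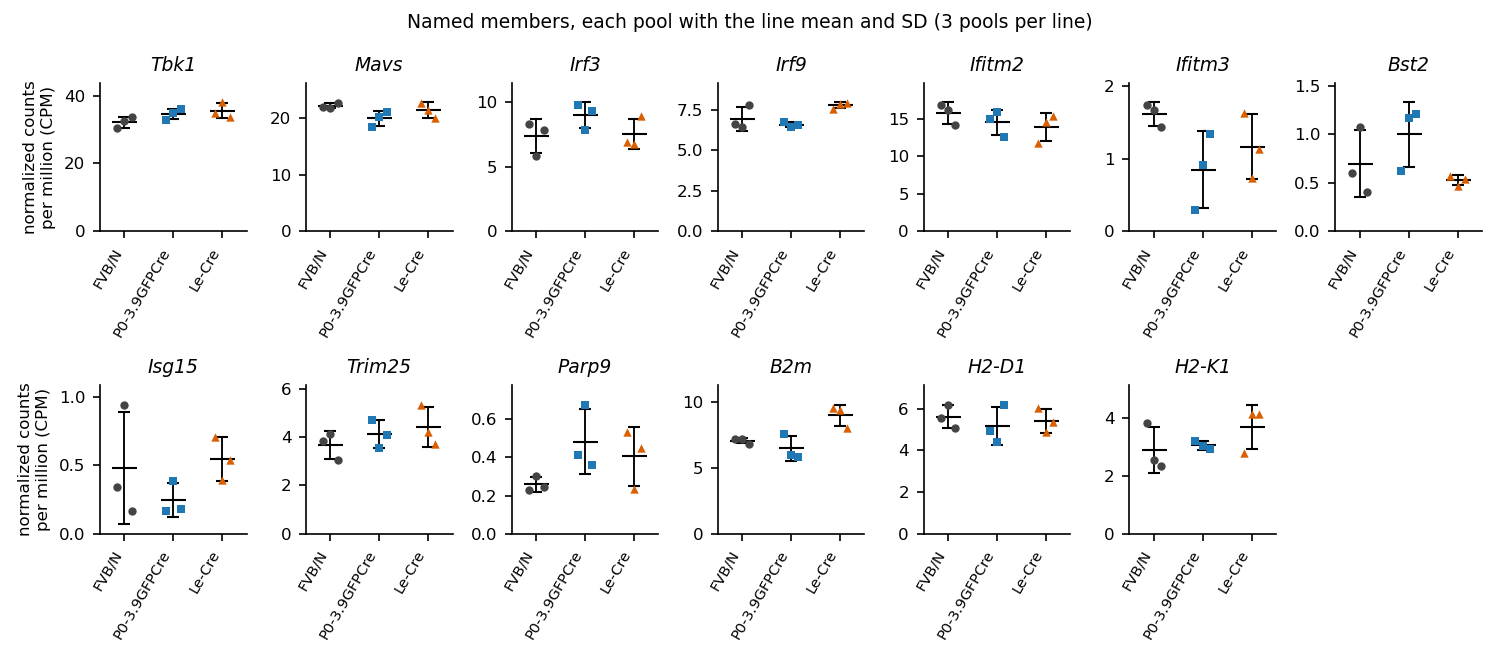
TMM-normalized CPM of the 13 members named by rule in each pool, with the mean and SD of the 3 pools of a line and every vertical axis starting at 0. The *B2m* panel shows all *Le-Cre* pools (8.05 to 9.53 CPM) above the other 6 pools, and in the panels of *Ifitm2*, *H2-K1*, *Irf3*, *H2-D1* and *Trim25* the pools of all lines overlap.

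Markers of other cells that carry these genes were read beside *B2m*, which immune and endothelial cells express strongly. The 13 macrophage markers summed to 2.35 to 4.87 TPM in *FVB/N*, 2.34 to 4.79 in *P0-3.9GFPCre* and 2.8 to 4.20 in *Le-Cre*. Of them 5 had enough counts to be tested, 0 passed the cutoff, 3 were above 0 in *Le-Cre*, and their median log2 fold change in *Le-Cre* against *FVB/N* was 0.44. The pan-leukocyte gene *Ptprc* had 0 to 5 counts in a pool and *Adgre1* 0 to 9, but neither was at 0 in every pool. The 6 lymphocyte markers summed to 0.71 to 1.26 TPM in *FVB/N*, 1.01 to 1.46 in *P0-3.9GFPCre* and 1.37 to 2.2 in *Le-Cre*, so every *Le-Cre* pool was above every *FVB/N* pool, the lowest by a small margin. Most of this sum was *Cd3g*, with a mean of 1.28 of 1.67 TPM in *Le-Cre*. By itself *Cd3g* overlapped between these lines (1.01 TPM in *Le-Cre* pool 1 and 1.11 in *FVB/N* pool 3). Of the 6 markers, 2 could be tested, 0 passed the cutoff, both were above 0 in *Le-Cre* against *FVB/N* (median log2 fold change 0.86), and 2, among them *Cd3e*, had 0 counts in all 9 pools. The 8 endothelial markers summed to 58.2 to 63.6 TPM in *FVB/N*, 43.8 to 65.0 in *P0-3.9GFPCre* and 53.7 to 65.3 in *Le-Cre*, with a median log2 fold change of -0.04. The 9 mesenchyme and pericyte markers summed to 38.97 to 40.6 TPM in *FVB/N*, 34.2 to 37.8 in *P0-3.9GFPCre* and 30.8 to 36.98 in *Le-Cre*. Every *FVB/N* pool was thus the higher in this sum, most of which was *Pdgfra* (mean 30.8 of 39.9 TPM in *FVB/N*). Of these markers 7 could be tested, 0 passed the cutoff, and 2 were above 0 in *Le-Cre* and 4 in *P0-3.9GFPCre* against *FVB/N*. The part of these cells in the *B2m* values was not tested.

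Low members can be read together as a sum. Summed over the 24 members below 1 TPM, the level was 7.16, 7.98 and 5.54 TPM in the *FVB/N* pools, 6.32, 7.54 and 6.27 in the *P0-3.9GFPCre* pools and 7.58, 7.91 and 6.03 in the *Le-Cre* pools. The lines overlapped, with means of 6.89 ± 1.24, 6.71 ± 0.719 and 7.17 ± 1.004 TPM (SD, n = 3 pools each). For the 26 tested members, each pool was the highest of all 9 for 1 to 6 members and the lowest for 0 to 6. *Le-Cre* pool 1 was most often the highest and *FVB/N* pool 3 most often the lowest.

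The rest of the pathway was read from 153 further genes in 6 lists, held as 154 entries by gene identifier. Interferon genes themselves were at or near 0, since 8 of 9 (*Ifnb1*, 3 *Ifna* genes, *Ifne*, *Ifng*, *Ifnl2* and *Ifnl3*) had 0 counts in all 9 pools and *Ifnk* had 0 to 4 counts in a pool. The receptor and JAK-STAT genes were at higher levels. *Ifnar2*, a subunit of the type I interferon receptor, stood at 17.8 TPM, *Jak1* at 10.4 and *Ifnar1* at 9.42 TPM. Of 62 entries for 61 further interferon-stimulated genes, 52 were below 1 TPM and 3 reached 5 TPM, with a median of 0.169 TPM, whereas the 14 receptor and JAK-STAT genes had a median of 6.67 TPM. Further sensors and adaptors had a median of 4.23 TPM, led by the helicase *Dhx9* at 37.2. Antigen presentation was led by the chaperone *Calr* at 366 TPM, while the immunoproteasome subunit *Psmb8* was between 0.03 and 0.21 TPM in the pools.

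None of the 96 tested genes of these lists passed the cutoff in any comparison, by edgeR. An unadjusted p under 0.05 was reached in *Le-Cre* against *FVB/N* by 2 of 13 receptor and JAK-STAT genes, 4 of 28 further sensors and adaptors, 1 of 8 IRF and NF-kB factors, 2 of 33 further interferon-stimulated genes and 1 of 14 antigen presentation genes. In *P0-3.9GFPCre* these counts were 2, 3, 0, 1 and 1, and in *Le-Cre* against *P0-3.9GFPCre* 2, 0, 0, 2 and 0. The shares over all tested genes were 7.94%, 6.81% and 7.88%. Among the receptors, *Ifngr1* had 13.4 ± 0.342 CPM in *FVB/N* and 11.3 ± 0.936 in *Le-Cre* (log2 fold change -0.24, edgeR adjusted p = 0.547) and *Ifngr2* had 10.8 ± 1.36 CPM in *FVB/N* and 13.3 ± 1.84 in *Le-Cre* (log2 fold change 0.31, edgeR adjusted p = 0.617) as means ± SD of 3 pools. *Jak1*, the kinase shared by the interferon receptors, had 49.6 ± 2.98 CPM in *FVB/N* and 40.3 ± 3.90 in *P0-3.9GFPCre* (log2 fold change -0.30, edgeR adjusted p = 0.590). *Ddx41*, a helicase described as a DNA sensor, had 17.3 ± 1.20 CPM in *FVB/N*, 21.2 ± 1.02 in *P0-3.9GFPCre* and 20.8 ± 1.27 in *Le-Cre*, with log2 fold changes of 0.29 and 0.26 against the same *FVB/N* pools (edgeR adjusted p = 0.590 and 0.451).

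Of the further interferon-stimulated genes, *Slfn9* had 13.6 ± 0.863 CPM in *FVB/N* and 17.0 ± 1.43 in *Le-Cre* (log2 fold change 0.32, edgeR adjusted p = 0.384), and *Herc6*, an ISG15 ligase in the mouse, had 0.827 ± 0.270 CPM in *FVB/N* and 1.62 ± 0.507 in *P0-3.9GFPCre* (log2 fold change 0.96, edgeR adjusted p = 0.722). *H2-T23*, a nonclassical class I gene, had 0.873 ± 0.4001 CPM in *FVB/N* and 2.03 ± 1.03 in *Le-Cre* (log2 fold change 1.20, edgeR adjusted p = 0.555). Its *Le-Cre* pools stood at 2.06, 0.76 and 1.45 TPM and its *FVB/N* pools at 0.99, 0.31 and 0.48 TPM, so the lines overlapped. *Tapbpl*, a peptide editor of class I molecules, had 3.17 ± 0.953 CPM in *FVB/N* and 1.78 ± 0.577 in *P0-3.9GFPCre* (log2 fold change -0.82, edgeR adjusted p = 0.662). Over the 33 tested interferon-stimulated genes the median log2 fold change stood at 0.06 for *Le-Cre* and 0.08 for *P0-3.9GFPCre*, with 19 and 23 genes above 0. Over all tested genes 49.0% and 50.0% were above 0. In *Le-Cre* against *P0-3.9GFPCre*, 12 of the 33 were above 0 (median -0.08), beside 49.5% of all tested genes. Both transgenic lines were compared with the same *FVB/N* pools, so their values against *FVB/N* are not independent of each other.

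Other pathway genes with the smallest p-values of their lists had log2 fold changes of 0.28 for *Lrrfip1*, 0.42 for *Nfkb1*, -0.29 for *Tor1aip1* and 0.22 for *Erap1* in *Le-Cre*, and of -0.21 for *Stat3*, -0.23 for *Traf3*, 0.28 for *Nfkb1*, -0.16 for *Rela*, 0.66 for *Gbp7* and 0.14 for *Nlrc5* in *P0-3.9GFPCre*, each against *FVB/N*. The smallest adjusted edgeR p among them was 0.3999, for *Tor1aip1*. These include the NF-kB subunits *Nfkb1* and *Rela*, the signalling adaptor *Traf3* and the class I transactivator *Nlrc5*.

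**Figure D5:**
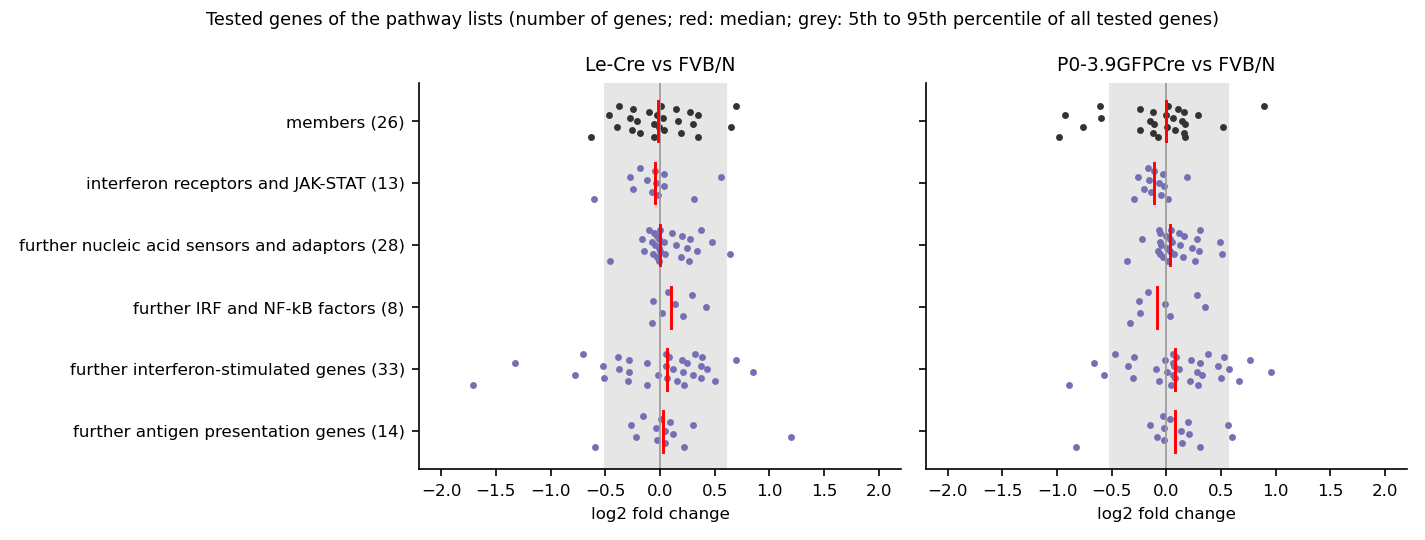
Log2 fold change of each tested gene of the members and of 5 further pathway lists, for both transgenic lines against *FVB/N*. Red lines are medians, the grey band spans the 5th to the 95th percentile of all tested genes, numbers in parentheses are genes tested, and the ligand list is not drawn because none of its genes could be tested. The list medians lie between -0.11 and 0.10.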

How the data were processed

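Polyadenylated RNA of newborn lenses was sequenced as single 51-base reads. Per the labels and the study's methods, the authors trimmed reads with Trimmomatic 0.36, aligned them to GRCm38 with GSNAP, estimated an expected count for each gene with RSEM 1.3.0 and compared lines with DESeq2 1.10.1. The files the authors deposited also hold TPM, which RSEM derives from the same estimates, and a score, the posterior standard deviation of each count. Expected counts were rounded to whole numbers here and tested with edgeR 4.0.16 in R 4.3.3 (TMM, filterByExpr with a minimum count of 10, glmQLFit and glmQLFTest, Benjamini-Hochberg adjustment over 15557 genes). DESeq2 1.42.0 was an alternative, and others changed the size factors, the filter, the pools, a replicate block, a Y-linked covariate and gene families. The test scripts were checked on simulated data.

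Lines were taken from the labels. Symbols are those in the gene identifiers of the files, and 47310 of 47729 identifiers were matched to GENCODE M21 for coordinates. Promoter windows came from RefSeq on GRCm38.p6. The members and lists were chosen with earlier results of these data known. Named with all pools were the 4 members with the smallest p in each comparison, the 6 most abundant and the most abundant of each role. *Ddx60*, *Mx1*, *Tmem173* and the pathway genes given by level alone were added after their values were seen. Some genes of the lists are not reported here by name. Floors and intervals of counts cover counting error only.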

Additional observations from a re-analysis of the deposited data

How the results depend on the processing

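No member passed the cutoff of 1.5-fold and an adjusted p of 0.05 in any comparison under the 17 alternative settings, and the smallest adjusted p of a member under any of them was 0.307, for *B2m* between the transgenic lines with edgeR and no filter on low counts. Of 1308 log2 fold changes recomputed, 96 changed sign, and in all of these except 1 the reported value was within 1 standard error of 0. The exception, *Mx1* in *Le-Cre* against *FVB/N*, had -0.63 and became 0.21 without *FVB/N* pool 3, with -1.01 to 0.21 over all pools left out in turn. The count of members with an unadjusted p under 0.05 was 0 in *Le-Cre* against *FVB/N* with either DESeq2 fit, and 1 in *P0-3.9GFPCre* against *FVB/N* with no filter (*Ifitm3*, with an unadjusted edgeR p of 0.0477) or with the Y-linked counts as a covariate (*Ifitm3*, log2 fold change -1.40, unadjusted edgeR p of 0.0238). The cause was not tested. With 1 pool left out in turn this count ranged from 0 to 2 in *Le-Cre* against *FVB/N*, from 0 to 1 in *P0-3.9GFPCre* against *FVB/N* and from 1 to 2 between the transgenic lines. The members gained were *H2-K1* without *FVB/N* pool 1, *Irf9* without *FVB/N* pool 3, *Bst2* without *P0-3.9GFPCre* pool 1, *Ifit1* without *P0-3.9GFPCre* pool 2, *Ifitm3* without *P0-3.9GFPCre* pool 3 and *Irf3* without *Le-Cre* pool 3.

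With the replicate number as a block (replicate block), *B2m* in *Le-Cre* had 0.34 against *FVB/N* and 0.47 against *P0-3.9GFPCre*, and the counts of members were 1, 0 and 1 as without it. Samples with the same number did not deviate together (mean correlation 0.03, range -0.10 to 0.12 over 9 pairs, against -0.01 for 18 pairs with different numbers). Members under 1 TPM are limited by depth.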
